A study of Mus musculus with 12 samples.

Results

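The genes described here are Agt and 6 further genes of the renin-angiotensin system, Ace, Agtr1a, Agtrap, Enpep, Lnpep and Atp6ap2, in isolated adult mouse cardiomyocytes. They were found by gene symbol, which gave 1 row for each, or 7 of the 21493 genes in every count table. Agt was chosen from these same data because its transcript differed with swimming in the Desmin-null libraries, and the other 6 were chosen as members of its pathway. Polyadenylated RNA was sequenced from 4 groups of 3 libraries each: Des+/+ non-swim, Des+/+ swim, Des-/- non-swim and Des-/- swim. All mice were 3 months old, and Des-/- mice lack desmin, the intermediate filament protein of muscle, whose loss leads to dilated cardiomyopathy. The swim groups had been through a course of swimming exercise. The study's methods describe an αMHC-GFP/129SV background shared by all groups, no separation of the sexes, and pooling of cells from several mice into each library, so the spread between libraries is a spread between pools. Cells were taken right after digestion of the heart with trypsin and collagenase D.

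The renin-angiotensin system is a peptide cascade that sets blood pressure, salt balance and tissue growth. Angiotensinogen, encoded by Agt, is cut by renin to angiotensin I, which angiotensin-converting enzyme (Ace) trims to the active peptide angiotensin II. Angiotensin II acts mainly through the AT1 receptor (Agtr1a and Agtr1b in mice), and further peptidases and the AT2 and Mas receptors make up a counter-regulatory branch. Liver is the main source of circulating angiotensinogen, and the heart also makes several parts of the system locally, where AT1 receptor activity is known for promoting hypertrophy and fibrosis.

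Agt (ENSMUSG00000031980) lies on the minus strand of chromosome 8 at chr8:124556534-124569706 (GRCm38, GENCODE M21) and has 1 annotated transcript of 1891 exonic bases. Its RefSeq promoter window and that of Ace are shown because these genes stand at the ends of the enzymatic step that makes angiotensin II and were the least and the most abundant of the 7 transcripts per length in unexercised Des+/+ cells. Each window runs from 250 bases before to 50 bases after the start site, is written 5′ to 3′ on the gene's strand, and carries a TATA box (TATAAA) or GC boxes (GGGCGG) in capitals.
Agt promoter, chr8:124569657-124569956, minus strand, GRCm38.p6: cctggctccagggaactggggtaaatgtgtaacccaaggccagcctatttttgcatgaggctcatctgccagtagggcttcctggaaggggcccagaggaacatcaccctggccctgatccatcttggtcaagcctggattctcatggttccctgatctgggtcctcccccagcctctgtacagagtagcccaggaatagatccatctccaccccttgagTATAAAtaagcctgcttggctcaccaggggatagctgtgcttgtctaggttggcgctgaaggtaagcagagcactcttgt
Ace promoter, chr11:105967698-105967997, plus strand, GRCm38.p6: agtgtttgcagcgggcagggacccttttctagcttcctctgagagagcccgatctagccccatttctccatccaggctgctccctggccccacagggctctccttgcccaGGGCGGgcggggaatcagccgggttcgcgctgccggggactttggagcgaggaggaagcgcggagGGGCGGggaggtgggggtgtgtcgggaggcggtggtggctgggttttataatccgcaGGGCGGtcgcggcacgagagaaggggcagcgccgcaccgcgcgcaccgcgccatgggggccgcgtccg
The Agt window held TATAAA 30 bases before the start site and no GC box on either strand. The first Ace window held 3 GC boxes, counted without overlap, and no TATAAA on the gene's strand. A further GGGCGG, not in capitals throughout, overlapped the first of these boxes. Its GC content was 69.67%, against 54.67% for Agt and a median of 52.67% over 32851 promoters. On the gene's strand TATAAA was present in 8.32% of all promoters and in 1 of the 7 windows found for 6 of the 7 genes. GGGCGG on either strand was present in 35.7% of all promoters and in 4 of those 7 windows, those of Agtrap, Ace, Lnpep and Atp6ap2. Ace has a second RefSeq start at chr11:105974939-105975238, and the count tables do not separate transcripts from the 2 starts.

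The libraries held 4320819 to 12072443 reads in genes, lowest in the Des-/- swim group. Values are given as CPM, read counts scaled to library size with trimmed-mean scaling, with SD over 3 libraries, and a floor of 3 counts corresponds to at most 0.656 CPM in any library. Des itself was at 2370 ± 1140 CPM in Des+/+ non-swim and 59.5 ± 11.3 CPM in Des-/- non-swim cells. The libraries differed in cell composition markers as well as in genotype. Summed levels of 10 ventricular cardiomyocyte markers ranged from 55800 to 87300 CPM in Des+/+ non-swim, 28300 to 48400 in Des+/+ swim, 5600 to 25500 in Des-/- non-swim and 14900 to 25200 in Des-/- swim libraries. Summed fibroblast markers ranged from 6160 to 7470, 5340 to 6600, 12400 to 39400 and 8580 to 14800 CPM in the same order, and macrophage markers from 225 to 342, 255 to 323, 419 to 4270 and 229 to 1380 CPM. The replicate 3 libraries of both Des-/- groups stood at the end of the first principal component, and values without 1 or both of them are given beside several of the results they move. A list of 12 genes known to respond to cell isolation, such as Fos and Egr1, summed to 1500 to 2420 CPM in Des+/+ non-swim, 1960 to 2240 in Des+/+ swim, 4510 to 8990 in Des-/- non-swim and 3750 to 6580 in Des-/- swim libraries, with no overlap between genotypes. Of these 12 genes, 9 were called higher in Des-/- by edgeR without swimming and 6 after it. Over all genes, 14.0% and 5.01% were called higher. The part of these 12 genes in the genotype differences was not tested. In such bulk samples, fewer cells of a type and less RNA per cell cannot be told apart.

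**Figure D1:**
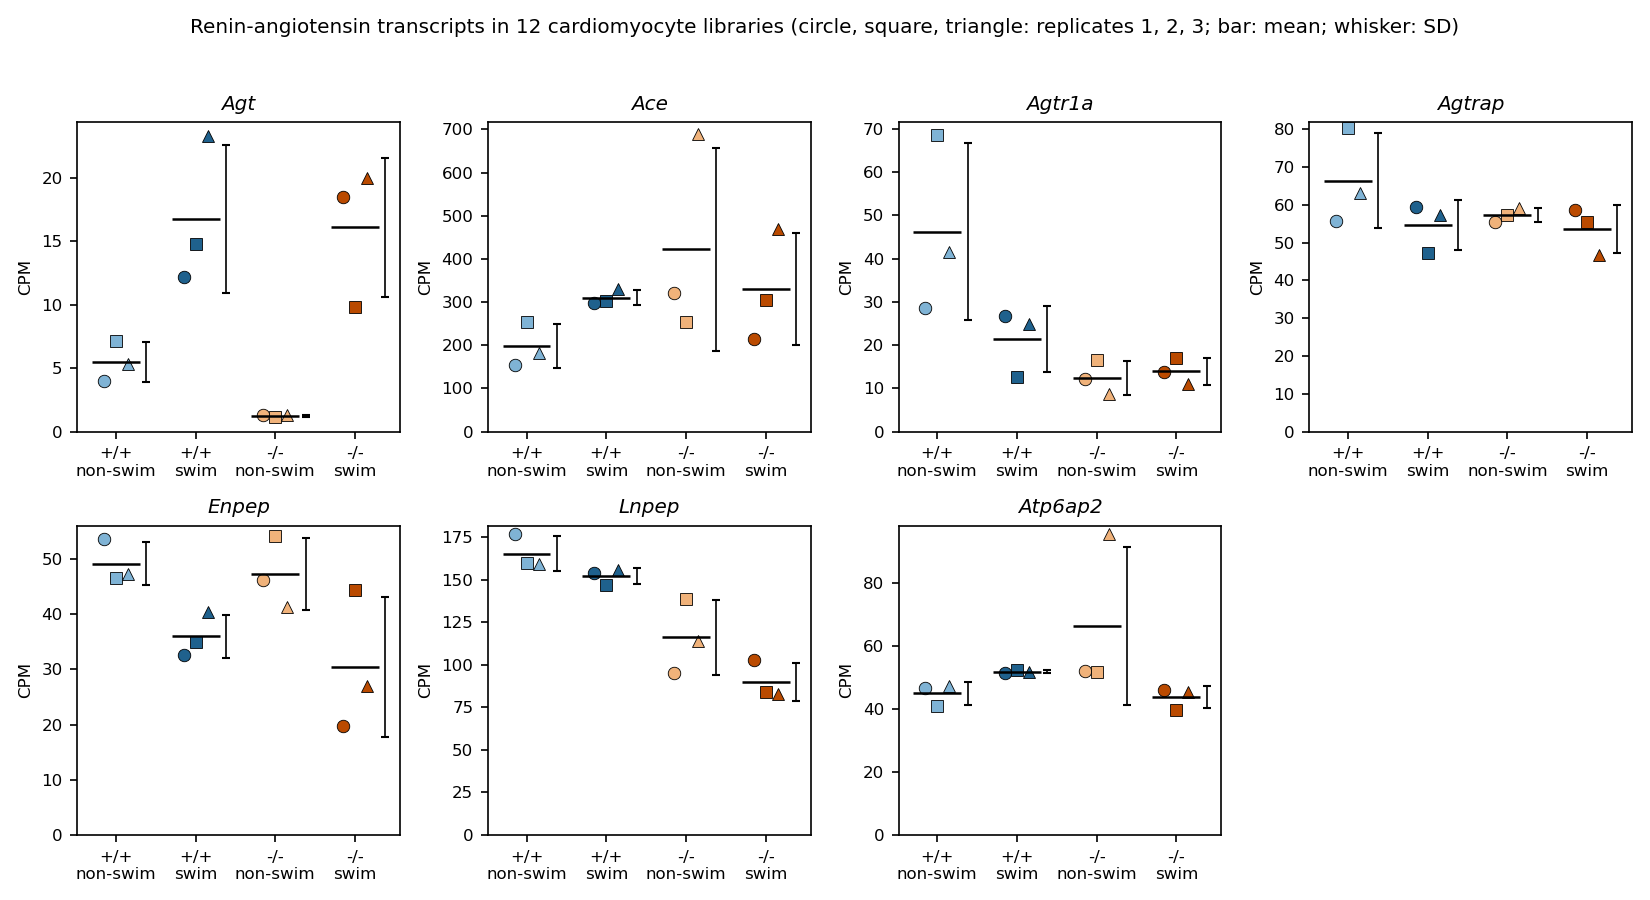
Level of each of the 7 genes in the 12 libraries, in CPM on linear axes from 0, with circle, square and triangle for replicates 1, 2 and 3, a bar for the group mean and a whisker for the SD. Agt stands lowest in the Des-/- non-swim libraries (1.13 to 1.31 CPM) and is higher in every swim library (9.84 to 23.3 CPM), while Agtr1a is highest in the Des+/+ non-swim libraries.

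Agt, the precursor of all angiotensin peptides, was low in cells without swimming and several-fold higher in the swim libraries of both genotypes. In Des+/+ non-swim cells it was at 4.01, 7.13 and 5.32 CPM (34, 61 and 59 counts), a mean of 5.49 ± 1.57 (SD, n = 3). In Des+/+ swim cells it was at 12.2, 14.8 and 23.3 CPM (103, 138 and 164 counts), a mean of 16.8 ± 5.85. All 3 swim libraries stood above all 3 non-swim libraries of this genotype. Of all genes tested, 31.3% had no overlap between these groups (12.5% higher with swimming). The fitted difference was 3.04-fold, a log2 change of 1.61 with SE 0.34. It had an unadjusted p of 0.000497 and an adjusted p of 0.0702 in edgeR's quasi-likelihood test over 13158 genes, so Agt did not pass the 0.05 threshold. DESeq2 on the same counts gave a log2 change of 1.63 with an adjusted p of 0.000911, which did pass. In this comparison DESeq2 called 4.37% of all genes and edgeR 0.0912%. Leaving out Des+/+ swim replicate 3, the highest library, lowered the log2 change to 1.29, and over the 12 fits that each left out 1 library the edgeR adjusted p ran from 0.0449 to 0.261.

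In Des-/- cells the Agt difference with swimming was the one that selected the gene, so it is described without a test. The Des-/- non-swim libraries had 1.28, 1.13 and 1.31 CPM, resting on 12, 10 and 15 counts, a mean of 1.24 ± 0.0949. The Des-/- swim libraries had 18.5, 9.84 and 20 CPM from 130, 45 and 130 counts, a mean of 16.1 ± 5.49. The groups did not overlap, and the lowest swim library stood above every non-swim library of either genotype. Over all genes, 19.4% had no overlap and 0.0228% were called in this comparison. The fitted log2 change of Agt was 3.69 with SE 0.38, or 12.9-fold, and 3.57 without both Des-/- replicate 3 libraries. The change in Des-/- exceeded that in Des+/+ by 2.08 on the log2 scale with SE 0.49.

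By level of Agt the order of the groups was Des-/- non-swim, Des+/+ non-swim and then the 2 swim groups. The 3 Des-/- non-swim values lay below the 3 Des+/+ non-swim values, a fitted log2 difference of -2.13 with SE 0.37, or 4.37-fold lower. Such separation of these groups, in either direction, held for 47.9% of all genes tested. The 2 swim groups overlapped, with a log2 difference of -0.05 and SE 0.32, which was 0.048 under upper-quartile scaling. Both genotype differences are descriptions, since the Des-/- libraries took part in selecting the gene.

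Values of other cell types and of library quality moved with swimming as well. The share of uniquely mapped reads outside genes was 36.4% ± 2.71 and 47.8% ± 2.31 in Des+/+ non-swim and swim libraries, and 45.2% ± 9.67 and 60.0% ± 3.95 in the Des-/- libraries. Adipocytes make Agt, and the summed adipocyte list was 1980 to 2590, 3390 to 4350, 1550 to 3070 and 3580 to 6290 CPM across the 4 groups. Nearly all of that sum was Fabp4, a fatty acid carrier that endothelial cells and cardiomyocytes also express. The adipocyte hormone Adipoq was at 0.471, 0.117 and 5.23 CPM in Des+/+ non-swim, at 0.285 to 1.42 in Des+/+ swim, at 0.0875 to 1.17 in Des-/- non-swim and at 0.154 to 2.84 in Des-/- swim libraries. All 6 tested adipocyte genes had higher fitted values in Des-/- swim than non-swim libraries, with a median log2 change of 1.14, and 1 of the 6 did in Des+/+ cells, with a median of -0.996. Plin4, a lipid droplet protein, was at 134 to 238 and 82.9 to 221 CPM in Des+/+ and at 15.4 to 58 and 67 to 82 CPM in Des-/- non-swim and swim libraries, without overlap in Des-/-. Over all genes tested, 19.4% had no overlap between the Des-/- groups. Of 9 hepatocyte markers, 5 had no more than 3 counts in any library, and 1 of these 5, Apob, had none. The summed hepatocyte list was 6.19 to 19.5 and 14.2 to 27.3 CPM in Des+/+ non-swim and swim libraries. In Des-/- libraries it was 5.16 to 13.9 and 19.1 to 30.2 CPM. Serpina3k, a serpin on this list, had 48 counts in all in the Des+/+ swim libraries, at 0.642 to 4.55 CPM, and 0 in all other groups. Ahsg, a secreted glycoprotein also on this list, was at 5.96 to 18.8 and 13.1 to 22.2 CPM in Des+/+ and at 4.90 to 13.4 and 18.2 to 29.5 CPM in Des-/- non-swim and swim libraries. The part of these measures in the Agt difference was not tested.

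**Figure D2:**
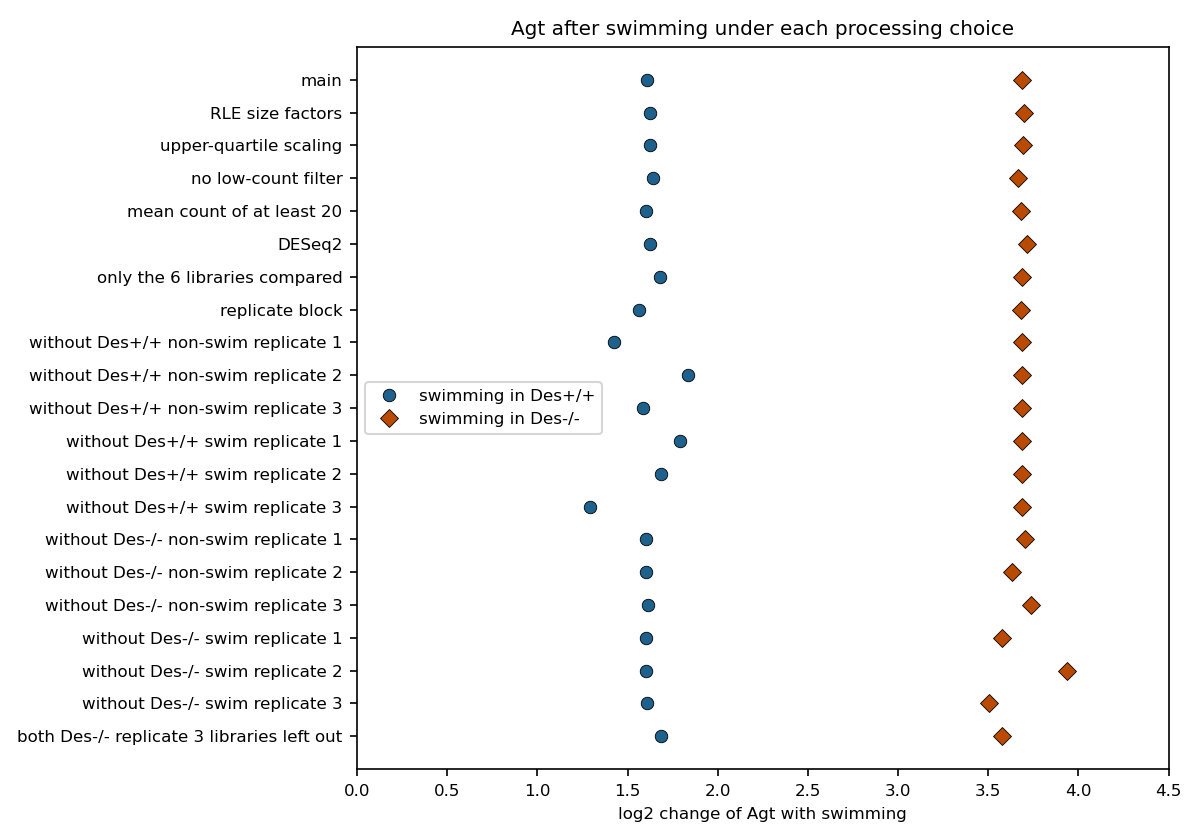
Log2 change of Agt with swimming, non-swim to swim, in Des+/+ (circles) and Des-/- (diamonds) under each processing choice and with each library left out. The Des+/+ values lie between 1.29 and 1.84 and the Des-/- values between 3.50 and 3.94 under all choices shown.

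Ace, which removes 2 residues from angiotensin I to make angiotensin II, was the most abundant of the 7 transcripts. It maps to chr11:105967945-105989964 on the plus strand, where an antisense gene, Gm11651, overlaps it. Des+/+ non-swim libraries had 155, 254 and 183 CPM, a mean of 197 ± 50.8, and Des-/- non-swim libraries had 322, 254 and 690 CPM, a mean of 422 ± 235. The groups did not overlap, but the highest Des+/+ and the lowest Des-/- value both rounded to 254 CPM. Des-/- replicate 3 stood far above the rest. Of all genes tested, 47.9% had no overlap between these groups. Ace was higher in Des-/- non-swim cells by a log2 difference of 1.10 with SE 0.37, 2.14-fold, with an adjusted p of 0.0415 in edgeR. Without Des-/- non-swim replicate 3 the log2 difference was 0.55 with an adjusted p of 0.197, and the call was kept in 4 of the 12 fits with 1 library left out, those without Des-/- non-swim replicate 1 or 2 or Des-/- swim replicate 1 or 3. Fibroblast and macrophage marker sums were highest in Des-/- non-swim replicate 3. The summed level of 10 endothelial markers was lowest in the same library, at 5430 CPM. The part of these cell types in the Ace difference was not tested.

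After swimming Ace was at 298, 303 and 330 CPM in Des+/+ and at 214, 304 and 470 CPM in Des-/- libraries. The Des-/- values spanned the Des+/+ values on both sides, with a log2 difference of 0.09, SE 0.37 and adjusted p of 0.894 in edgeR. The sign turned without Des-/- swim replicate 3, to -0.26. All Des+/+ swim values lay above the Des+/+ non-swim values, but the log2 change of 0.66 with SE 0.37 had an adjusted p of 0.329. These groups did not overlap for 31.3% of all genes tested. In Des-/- libraries Ace differed between swim and non-swim by -0.36 on the log2 scale, with overlapping values. Of 10 endothelial markers, 9 had higher fitted values with swimming in Des+/+ and 10 in Des-/- libraries. Their part in the Ace values was not tested.

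Agtr1a, the main AT1 receptor transcript in rodents, was highest in Des+/+ non-swim cells and lower in each of the other groups. The gene lies at chr13:30336441-30382867 on the plus strand. Des+/+ non-swim libraries had 28.5, 68.6 and 41.6 CPM, a mean of 46.2 ± 20.4, and Des-/- non-swim libraries had 12.2, 16.5 and 8.66 CPM, a mean of 12.5 ± 3.94. Every Des+/+ value exceeded every Des-/- value. Of all genes tested, 47.9% had no overlap between these groups (24.9% lower in Des-/-). Agtr1a was lower in Des-/- non-swim cells by a log2 difference of -1.89 with SE 0.37, 3.72-fold, with an adjusted p of 0.00367 in edgeR. The call held in all 12 fits with 1 library left out, with log2 differences from -2.15 to -1.5, and without both Des-/- replicate 3 libraries, at -1.61. Ventricular cardiomyocyte markers were lower in the same comparison for 10 of 10 genes, and their part in the Agtr1a difference was not tested.

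With swimming Agtr1a was at 26.7, 12.6 and 24.9 CPM in Des+/+ cells, a mean of 21.4 ± 7.66, and all 3 values lay below the non-swim values. The Des+/+ groups had no overlap for 31.3% of all genes tested. The log2 change of -1.11 with SE 0.36 had an unadjusted p of 0.0103 and an adjusted p of 0.136 in edgeR, so it did not pass. In Des-/- cells the swim libraries had 13.7, 17.1 and 10.9 CPM and overlapped the non-swim libraries, with a log2 change of 0.15 and SE 0.38. The difference between the 2 swimming changes was 1.27 with SE 0.52 and an adjusted p of 0.269. After swimming the genotypes overlapped, with a log2 difference of -0.63 and an adjusted p of 0.276. Agt and Agtr1a thus stood in opposite order between the Des+/+ groups, ligand precursor higher and receptor lower in the swim libraries, without either change passing the threshold in edgeR. Ventricular cardiomyocyte markers also had lower fitted values in Des+/+ swim libraries for 10 of 10 genes. Their median log2 change was -0.826, beside -0.0805 over all genes, and 0 were called. The part of these markers in the Agtr1a change was not tested.

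Agtrap encodes a membrane protein that binds the AT1 receptor and favours its internalisation. It varied little, with 55.6, 80.2 and 63.2 CPM in Des+/+ non-swim, 59.5, 47.2 and 57.3 in Des+/+ swim, 55.4, 57.2 and 59.1 in Des-/- non-swim and 58.6, 55.5 and 46.6 CPM in Des-/- swim libraries. All groups overlapped one another. The genotype difference was -0.21 with SE 0.15 without swimming and -0.03 with SE 0.16 after it, where the sign changed under upper-quartile scaling. Adjusted p values in edgeR were 0.31 and 0.916, and 0.32 for the change with swimming in Des+/+ cells.

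Enpep, the aminopeptidase A that converts angiotensin II to angiotensin III, was close to 50 CPM in both genotypes without swimming. The values were 53.6, 46.5 and 47.2 CPM in Des+/+ and 46.2, 54.2 and 41.2 CPM in Des-/- libraries, a log2 difference of -0.06 with SE 0.24 and an adjusted p of 0.875 in edgeR. It was 0.046 under upper-quartile scaling. Des+/+ swim libraries had 32.6, 35.0 and 40.3 CPM, all below the non-swim libraries, yet the log2 change of -0.45 with SE 0.24 had an adjusted p of 0.30. Values of 31.3% of all genes tested had no overlap between these groups. Des-/- swim libraries had 19.8, 44.4 and 26.9 CPM, of which replicate 2 overlapped the non-swim values, with a log2 change of -0.65. After swimming the genotype difference was -0.25 with SE 0.24 and an adjusted p of 0.502.

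Lnpep encodes a placental leucine aminopeptidase, also known as the receptor for angiotensin IV and as a resident of insulin-responsive vesicles. Of the 6 genes tested between genotypes, it alone passed both with and without swimming. Des+/+ non-swim libraries had 177, 160 and 159 CPM and Des-/- non-swim libraries had 95.3, 139 and 114 CPM, with no overlap. This was so for 47.9% of all genes tested. Lnpep was lower in Des-/- by a log2 difference of -0.51 with SE 0.15 and an adjusted p of 0.0232 in edgeR. This call did not survive upper-quartile scaling, at -0.41 with an adjusted p of 0.0559, nor the removal of both Des-/- replicate 3 libraries, at -0.42 with an adjusted p of 0.0954, and 8 of 12 fits with 1 library left out kept it, all but those without Des+/+ non-swim replicate 1 or 2 or Des-/- non-swim replicate 1 or 3.

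After swimming Lnpep was at 154, 147 and 156 CPM in Des+/+ and at 103, 84.0 and 83.1 CPM in Des-/- libraries. The 3 Des+/+ values lay close together and well above the Des-/- values. Between genotypes, 35.9% of all genes tested had no overlap after swimming. The log2 difference was -0.75 with SE 0.15, 1.69-fold lower in Des-/-, with an adjusted p of 0.0162 in edgeR. Of 12 fits with 1 library left out, 11 kept the call, and without Des+/+ swim replicate 3 the difference was -0.74 with an adjusted p of 0.0611. That last fit called 0.55% of all genes. The difference of Lnpep with swimming was -0.12 with SE 0.15 in Des+/+ and -0.37 with SE 0.15 in Des-/- libraries, the first with an adjusted p of 0.683 and the second given without a test.

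Atp6ap2, the (pro)renin receptor and an accessory subunit of the vacuolar proton pump, was at 46.8, 40.9 and 47.5 CPM in Des+/+ non-swim and at 52.2, 51.8 and 95.6 CPM in Des-/- non-swim libraries. Replicate 3 of the Des-/- group was nearly double the other two. The log2 difference of 0.56 with SE 0.21 had an adjusted p of 0.0569 in edgeR and was 0.21 without that library. DESeq2 gave 0.57 with an adjusted p of 0.0469, and upper-quartile scaling 0.66 with an adjusted p of 0.0267. After swimming Des+/+ libraries lay between 51.6 and 52.5 CPM and Des-/- libraries at 46.2, 39.8 and 45.4 CPM, all lower, with a log2 difference of -0.25 and an adjusted p of 0.453. In this comparison 35.9% of all genes tested had no overlap. The swimming change in Des-/- minus that in Des+/+ was -0.81 with SE 0.29, an unadjusted p of 0.0184 and an adjusted p of 0.236. It was -0.46 without Des-/- non-swim replicate 3 and -0.54 without both Des-/- replicate 3 libraries.

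**Figure D3:**
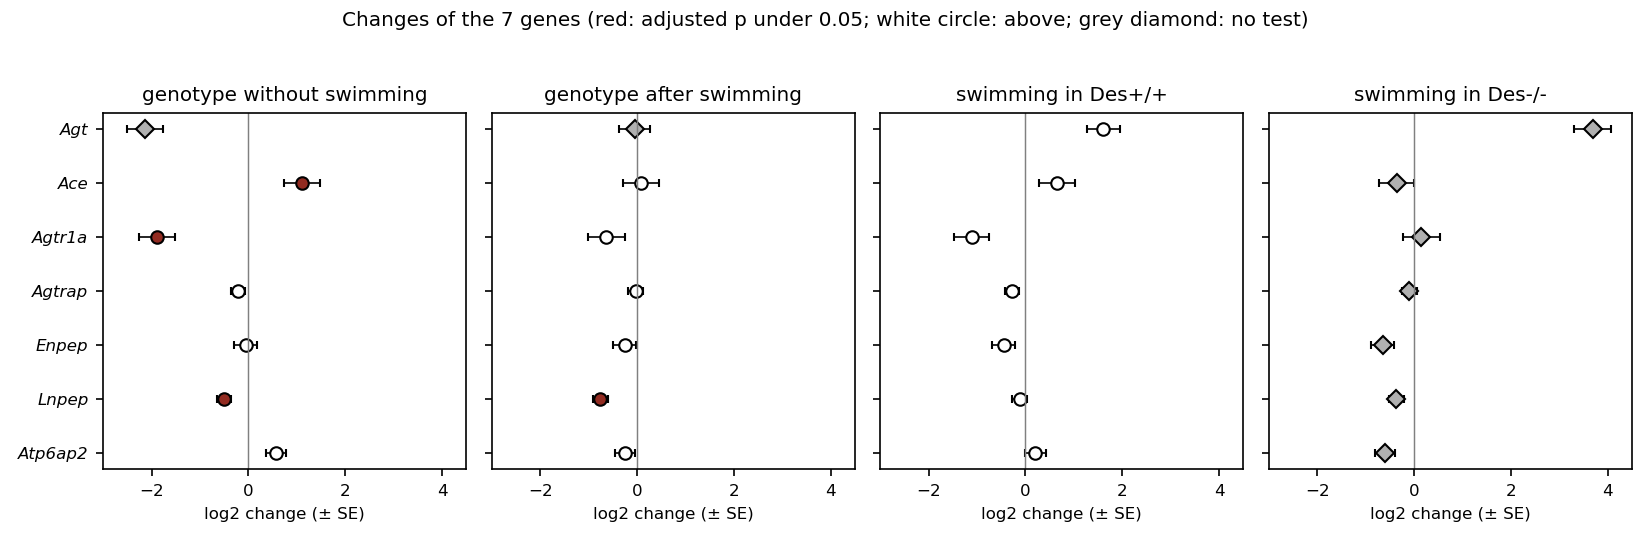
Log2 changes with SE bars for the 7 genes in 4 comparisons, Des-/- relative to Des+/+ in the first 2 panels and swim relative to non-swim in the last 2. Red circles passed an adjusted p of 0.05 in edgeR, white circles did not, and grey diamonds are descriptions without a test; Agtr1a, Lnpep and Ace passed without swimming, and Lnpep after it.

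Between genotypes without swimming, 3 of the 6 genes other than Agt were called at an adjusted p under 0.05 by edgeR, Ace higher and Agtr1a and Lnpep lower in Des-/- cells, against 32.0% of all 13158 genes tested (14.0% higher and 18.0% lower). With both Des-/- replicate 3 libraries left out 1 was called, Agtr1a, and 1 was called when Des+/+ non-swim replicate 1 or 2 or Des-/- non-swim replicate 3 alone was left out. Over all genes, 28% were called without both, and 25.5%, 19.5% and 21.1% without those single libraries, in that order. After swimming 1 of the 6, Lnpep, was called, against 10.6% of all genes (5.01% higher and 5.57% lower). None of the 6 was called without Des+/+ swim replicate 3, a fit that called 0.55% of all genes. For swimming in Des+/+ cells 0 of the 7 were called by edgeR, against 0.0912% of all genes, while DESeq2 called 1, Agt, against 4.37% of all genes. At an unadjusted p under 0.05 there were 2 of the 7, Agt and Agtr1a, against 20.5% of all genes. For the difference between the swimming changes 0 of 6 were called by edgeR or DESeq2, against 0.00% of all genes in edgeR and 1.76% in DESeq2, and 2 of the 6, Agtr1a and Atp6ap2, had an unadjusted p under 0.05, against 16.3% of all genes. The median log2 difference of the 6 genes was -0.14 without and -0.25 after swimming, beside 0.04 and 0.02 over all genes.

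Levels between genes can be compared only per length of exon. In Des+/+ non-swim cells Ace stood highest at 37.3 ± 9.61 CPM per kb, ahead of Atp6ap2 at 17.2 ± 1.38, Agtr1a at 16.6 ± 7.34 and Agtrap at 15.7 ± 2.97 CPM per kb. The last 3 differed by less than their spread. Lnpep followed at 11.7 ± 0.721, Enpep at 10.4 ± 0.834 and Agt at 2.90 ± 0.829 CPM per kb. In Des-/- non-swim cells Agtr1a stood at 4.48 ± 1.42 CPM per kb, behind Enpep and Lnpep, and Agt at 0.656 ± 0.0502. In the swim groups Agt stood at or above the level of Agtr1a, at 8.86 ± 3.09 beside 7.68 ± 2.75 CPM per kb in Des+/+ and at 8.52 ± 2.90 beside 4.98 ± 1.10 in Des-/- cells.

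Of 24 genes listed for the renin-angiotensin pathway, the 7 included, 15 were abundant enough to test. Renin itself was almost absent. Ren1 had no counts in 9 of the 12 libraries, 1 count in a Des-/- non-swim library and 7 and 2 counts in Des-/- swim replicates 1 and 2. Mice of 129 strains carry a near-identical gene, Ren2, for which the tables have no row. Agtr1b had no counts in any library, the AT2 receptor Agtr2 had at most 3, and the protease genes Ctsg and Klk1 were also at or near the floor. Mas1, the receptor for angiotensin 1-7, had 6, 18 and 7 counts in Des+/+ non-swim and 0 to 4 in all other libraries.

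Without swimming, 6 of the 14 tested pathway genes other than Agt passed in edgeR, Ace and Anpep higher and Lnpep, Mme, Prep and Agtr1a lower in Des-/-, or 42.9% beside 32.0% of all genes. The median log2 difference of the 14 was 0.06, and 5 were called without both Des-/- replicate 3 libraries and 3 without Des+/+ non-swim replicate 2. These fits called 28% and 19.5% of all genes. Mme (neprilysin) and Prep (prolyl endopeptidase), which release angiotensin 1-7, differed by -1.73 with an adjusted p of 0.00997 and by -0.47 with an adjusted p of 0.0204. With 1 library left out, Mme kept its call in 12 of 12 fits. Prep lost its call without Des+/+ non-swim replicate 2 or Des-/- non-swim replicate 1. The Prep call was also lost without a low-count filter and with only the 6 libraries compared. Anpep (aminopeptidase N), which cleaves angiotensin III, was at 75.3, 64.4 and 224 CPM in Des-/- against 26.8 to 43.9 CPM in Des+/+ libraries, a log2 difference of 1.78 with an adjusted p of 0.00909 in edgeR. Its highest value was again in Des-/- non-swim replicate 3, without which the difference was 0.99 with an adjusted p of 0.0172.

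After swimming 2 of the 14 passed, Lnpep lower and Thop1 higher in Des-/-, or 14.3% beside 10.6% of all genes. Thop1 (thimet oligopeptidase), another angiotensin 1-7 forming enzyme, was at 22.7, 16.8 and 19.9 CPM in Des+/+ and at 33.3, 29.5 and 30.5 CPM in Des-/- swim libraries. The log2 difference was 0.65 with an adjusted p of 0.0264 in edgeR, and the call was lost when any swim library other than Des+/+ replicate 1 was left out. For swimming in Des+/+ cells 0 of 15 passed in edgeR and 1, Agt, in DESeq2, and 0 of 14 passed in the test of the difference between swimming changes by either tool. At an unadjusted p under 0.05 there were 3 of 15 (Agt, Agtr1a and Thop1), beside 20.5% of all genes, and 4 of 14 (Agtr1a, Atp6ap2, Anpep and Thop1), beside 16.3%.

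**Figure D4:**
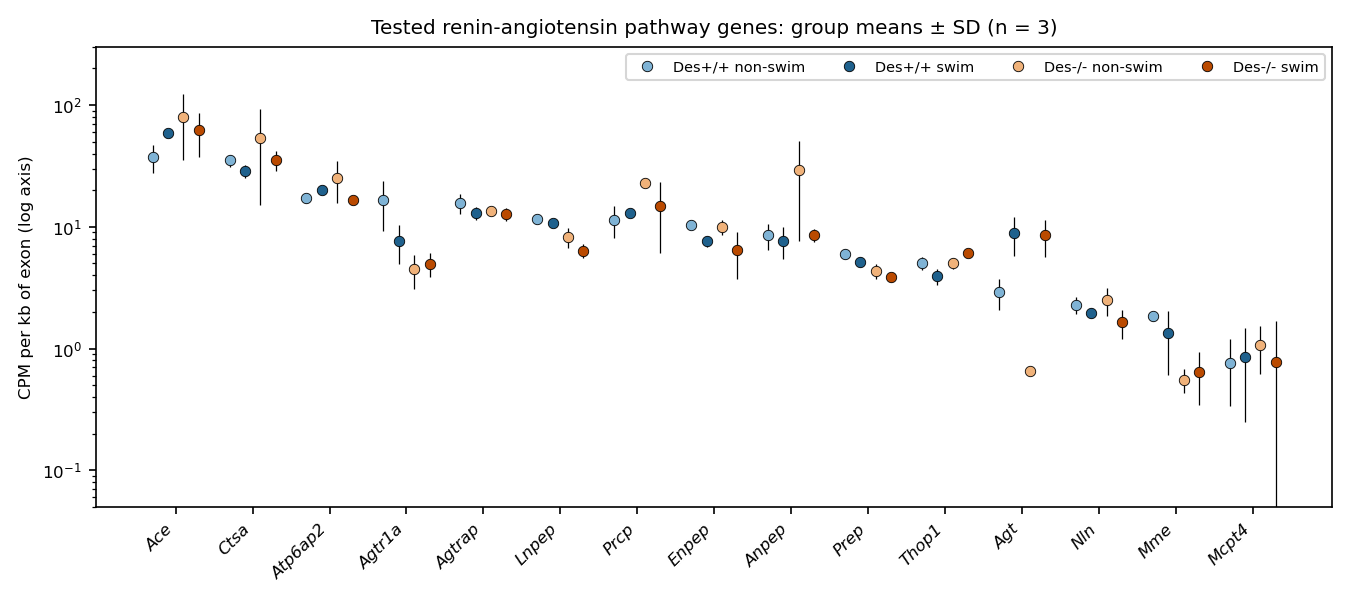
Group means with SD (n = 3) of the 15 tested pathway genes in CPM per kb of exon on a log axis, ordered by the Des+/+ non-swim mean. Agt spans 0.656 to 8.86 CPM per kb across the groups, while Agtrap stays between 12.7 and 15.7.

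Downstream of the AT1 receptor, 23 signalling genes were tested, and 7 were higher and 0 lower in Des-/- non-swim cells in edgeR, a median log2 difference of 0.25 beside 0.04 over all genes. The calls made up 30.4% of the list, and 32.0% of all genes were called (14.0% higher and 18.0% lower). The largest were Nox4, an NADPH oxidase, at 1.74 with an adjusted p of 0.0172, Arrb2 (beta-arrestin 2) at 1.73 with 0.00895, Prkcd, a protein kinase C, at 1.26 with 0.0285, and Cyba, the p22phox oxidase subunit, at 1.25 with 0.0265. Leaving out Des-/- non-swim replicate 3 reduced the calls to 4 of 23, as did leaving out Des+/+ non-swim replicate 2, while 2 were left without Des+/+ non-swim replicate 1 or 3. In these fits 21.1%, 19.5%, 25.5% and 21.9% of all genes were called, in the order named. Without Des-/- non-swim replicate 3, Prkcd and Cyba did not pass, at 0.57 and 0.63, and Arrb2 was at 0.95. Arrb2, Prkcd and Cyba are also abundant in macrophages, whose marker sum was highest in that library, and the part of those cells was not tested. After swimming 4 were higher and 1 lower, among them Nox4 at 2.52 with an adjusted p of 0.016, Arrb2 at 1.46 with 0.0448, Arrb1 (beta-arrestin 1) at 0.71 with 0.0355 and Jak2, a cytokine receptor kinase, at -0.69 with 0.0255. These calls were 21.7% of the list, beside 10.6% of all genes (5.01% higher and 5.57% lower). With 1 library left out, Nox4 kept its call in 11 of 12 fits, Jak2 in 6, Arrb1 in 5 and Arrb2 in 3. Without Des-/- swim replicate 3, Nox4 was at 1.81, and Arrb2 at 1.14 with an adjusted p of 0.126 in edgeR. Without Des+/+ swim replicate 3 the count was 0, and it was 1 to 3 when any other swim library, or Des+/+ non-swim replicate 1 or 3, was left out. Of all genes, 0.55% were called in the first of these fits and 3.76% to 8.53% in the others. Nox4 was at 3.34 to 5.38 CPM in Des+/+ and 11.6 to 17.2 CPM in Des-/- non-swim libraries.

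Of 12 tested transcription factors and hormone receptors known to act on Agt, 2 passed without swimming, both higher in Des-/-. This was 16.7% of the list, beside 32.0% of all genes (14.0% higher). They were Cebpa, a liver and myeloid factor, at 2.29 with an adjusted p of 0.0219, and the NF-kappaB subunit Rela at 0.47 with 0.019 in edgeR. Cebpa was at 24.0, 17.4 and 137 CPM in Des-/- non-swim libraries and its difference was 0.76 with an adjusted p of 0.124 without replicate 3. No gene of this list was called when Des+/+ non-swim replicate 1 or 2 or Des-/- non-swim replicate 3 was left out. Those fits called 25.5%, 19.5% and 21.1% of all genes. Of 8 tested genes of the mineralocorticoid arm, Hsd11b1, which regenerates active glucocorticoid, was lower in Des-/- without swimming at -0.76 with an adjusted p of 0.0332 and after it at -1.53 with 0.0106. The first call was lost without any 1 of 5 of the 6 non-swim libraries, all but Des+/+ replicate 3, and with upper-quartile scaling, without a low-count filter and without both Des-/- replicate 3 libraries, and the second without Des+/+ swim replicate 3. Hsd11b2, which inactivates glucocorticoid, passed at 1.53 with an adjusted p of 0.0393 without swimming, on 2 to 22 counts a library, and failed in DESeq2 with 0.0682. Of the 12 fits with 1 library left out, 4 kept this call, and it was also lost without a low-count filter, with only the 6 libraries compared and without both Des-/- replicate 3 libraries. The 2 calls without swimming were 25.0% of the list and the 1 call after it 12.5%, beside 32.0% and 10.6% of all genes. For swimming in Des+/+ edgeR called 0 of the 12 Agt regulators and 0 of the 8 mineralocorticoid genes, beside 0.0912% of all genes. Of the 12 regulators 7 were higher and 5 lower with swimming, with a median log2 change of 0.1. Of the 8 mineralocorticoid genes 6 were higher and 2 lower, with a median of 0.805, beside -0.0805 over all genes.

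The genes whose profile over the 12 libraries was most like that of Agt were ranked by Pearson's r of log2 CPM, as a description, since the libraries share groups and depth. They were Pim3, a serine/threonine kinase (r = 0.889), Cidea, a lipid droplet protein (0.879), Trip10, a membrane-bending adaptor (0.879), Ppargc1a, a coactivator of mitochondrial biogenesis (0.855), the death receptor Fas (0.853), the growth factor Pdgfa (0.852), the transcription factor Tcf23 (0.851) and Pla2g6, a phospholipase (0.845). Their likeness came mostly from the group means: after subtraction of these, r was 0.785 for Pla2g6 and between -0.366 and 0.435 for the other 7. Ppargc1a was at 66.9 ± 1.5, 168 ± 83.3, 14.1 ± 10.9 and 73.3 ± 23.6 CPM in Des+/+ non-swim, Des+/+ swim, Des-/- non-swim and Des-/- swim cells. Cidea, also a brown fat gene, was at 19.7 ± 13.7, 23.0 ± 4.25, 4.81 ± 1.07 and 25.7 ± 3.30 CPM, so that it was low in the same group as Agt. None of the other 6 renin-angiotensin genes was among the 8, and their r with Agt ran from -0.65 for Enpep to 0.147 for Agtr1a.

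**Figure D5:**
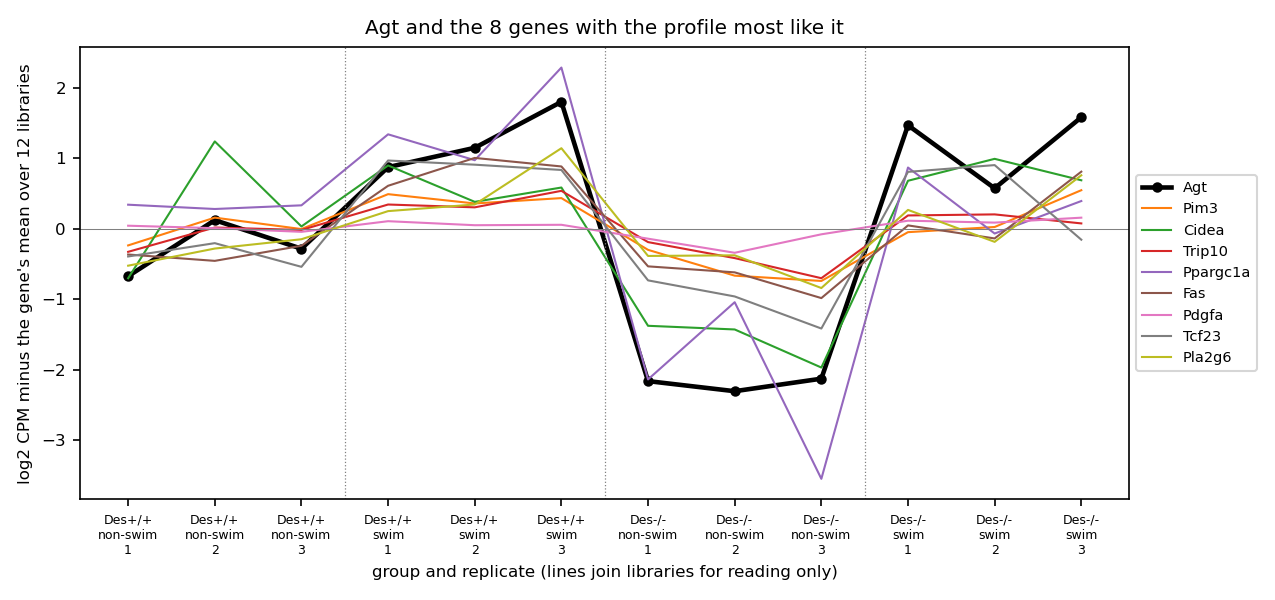
Log2 CPM of Agt (thick black line) and of the 8 genes with the most similar profile, each minus its own mean over the 12 libraries, by group and replicate. All 9 are below their mean in the 3 Des-/- non-swim libraries, where Ppargc1a reaches the lowest value in replicate 3.

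Each of the other genes followed a different profile. Agtr1a was most like Hadh, an enzyme of fatty acid oxidation (r = 0.982, and 0.955 after subtraction of group means). Ace was most like Map1s (0.945) and Lnpep most like Cpox, an enzyme of haem synthesis (0.956). Agtrap was most like Adh5 (0.943), Enpep most like Astn1 (0.946), and Atp6ap2 most like Rtn4 (0.938). Among the 7 genes themselves the highest r was 0.753 between Agtr1a and Agtrap, over 12 libraries.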

How the data were processed

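Polyadenylated RNA of isolated adult cardiomyocytes was sequenced as 100-base single-end reads. The authors aligned reads to GRCm38 with HISAT2 2.2.1, sorted them with SAMtools 1.13 and deposited HTSeq counts per gene, per library, with strand-reversed counting per the methods; the labels name a kit that does not mark strand, so overlapping antisense genes may share reads. The annotation release is not given in the sources used here, and 21488 of 21493 gene identifiers matched GENCODE M21. Whole-read counts of all 12 libraries were fitted in edgeR 4.0.16 (R 4.3.3, limma 3.58.1) with trimmed-mean (TMM) scaling, filterByExpr, one mean per group and the quasi-likelihood F-test. Benjamini-Hochberg adjustment ran over all 13158 genes tested, and the script was tested on simulated data. DESeq2 1.42.0, other scalings and filters, the 6 compared libraries alone, a replicate block and omission of libraries were alternatives. Where the text gives r, log2 CPM had a prior count of 2.

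The genes and lists were chosen with earlier results of these data known. Some listed genes are not reported here. Agt was tested only for swimming in Des+/+, and none of the 7 genes for swimming in Des-/-. The genes always named are the 7, every called pathway gene, the called genes with the 4 largest changes of each other list, and the 8 genes most like Agt or the 3 most like another gene, of which the first is printed. Replicate numbers were checked for pairing: deviations from group means had their highest correlations within same-numbered pairs between the Des-/- groups (0.365, 0.316 and 0.602). Between the 2 swim groups these were 0.0189, 0.125 and 0.116, and each Des+/+ swim library was most like the Des-/- swim library of its number. Whether libraries came from separate mice beyond pooling was not given, so p-values measure the spread between these libraries. Promoter sequences are from RefSeq (GRCm38.p6) and were found for 6 of the 7 symbols, not for Agtr1a.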

Additional observations from a re-analysis of the deposited data

How the results depend on the processing

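Agt for swimming in Des+/+ passed the threshold in DESeq2 (log2 change 1.63, adjusted p 0.000911), with only the 6 libraries compared (1.68, 0.0388), without both Des-/- replicate 3 libraries (1.68, 0.0192) and without Des-/- non-swim replicate 3 (1.62, 0.0449). The corresponding counts of called genes were 1 of the 7 and 1 of the pathway under DESeq2, under only the 6 libraries and without both replicate 3 libraries, against 0. Over all genes, 4.37%, 2.25% and 5.62% were called in these fits, against 0.0912%. Without Des-/- non-swim replicate 3 the share of all genes was 1.17%. Without swimming, 1 of the 6 genes was called with only the 6 libraries and 1 without both replicate 3 libraries, against 3. The shares of all genes were 26.5% and 28%, against 32%. With 1 library left out in turn, called genes ranged from 1 to 4 of the 6 and from 3 to 7 of the pathway without swimming, from 0 to 1 and from 0 to 3 after swimming, and from 0 to 1 in both for swimming in Des+/+, where the log2 change of Agt ranged from 1.29 to 1.84. The share of all genes called ranged from 19.5% to 34.4% without swimming and from 0.55% to 16.1% after it. For swimming in Des+/+ this share ranged from 0% to 1.17%. The cause of these shifts was not tested.

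Small differences that passed no test changed sign. Ace after swimming went to -0.26 without both replicate 3 libraries and ranged from -0.26 to 0.32 with 1 library left out. Agtrap after swimming went to 0.067 under upper-quartile scaling and 0.073 without both replicate 3 libraries, and ranged from -0.13 to 0.061. Enpep without swimming went to 0.046 under upper-quartile scaling, 0.0063 without a low-count filter and 0.10 without both replicate 3 libraries, and ranged from -0.17 to 0.036. The swimming change of Enpep in Des-/- minus that in Des+/+ ranged from -0.56 to 0.041. Upper-quartile scaling moved the median log2 difference of all genes without swimming from 0.04 to 0.14.

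With the replicate block, Agt changed with swimming by 1.57 in Des+/+ (adjusted p 0.0834) and by 3.68 in Des-/-. Same-numbered libraries correlated most highly between the Des-/- groups. The block changed no call among the 7 genes; of the other genes named, Hsd11b1 without swimming lost its call (adjusted p 0.0521). The counts of called mineralocorticoid genes and Agt regulators rested on few genes and each moved between 0 and 3 without swimming. The difference between swimming changes could not be fitted with only 6 libraries. Alternatives for the genes and lists outside the pathway were chosen after seeing the data. Counts of 10 to 15 a library limit the precision of Agt in Des-/- non-swim cells.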
